A study of Homo sapiens with 12 samples.

Results

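The kinesins are a family of motor proteins that walk along, or take apart, microtubules. Here 38 kinesin genes, of the 60648 genes in the count table, were followed in HCT116 cells with and without MTHFD2. They were taken by name from a list of the family, after matching the Ensembl identifiers of the table to symbols, and all 38 were found. The list was chosen with earlier results of these data known. They were sorted by their known work into 12 mitotic or cytokinetic kinesins, 14 transport kinesins, and 12 kinesins of cilia, microtubule regulation or other tasks.

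HCT116 is a human colon carcinoma line, grown here in serum-containing medium. MTHFD2 is an enzyme of mitochondrial folate metabolism, and the series concerns a nuclear role for it in centromere methylation and mitosis. Poly-A selected RNA was sequenced in 4 groups of 3 libraries: MTHFD2-WT cells at an initial harvest (WT initial), the same genotype after 2 months in culture (WT final), MTHFD2 knock-out cells right after they were made (KO initial), and knock-out cells after 2 months (KO final). The knock-out was made with CRISPR-Cas9 and came from 1 isolated clone, so the effect of the gene and a trait of that clone cannot be told apart. The labels call the 3 libraries of a group biological replicates without naming separate cultures, so p-values measure only the spread between these libraries.

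Mitotic kinesins build and work the spindle. KIF11 slides antiparallel microtubules apart, KIFC1 pulls them together, KIF2C depolymerizes microtubules at centromeres, KIF18A sits at the plus ends of kinetochore microtubules and damps chromosome movements during alignment, and KIF20A and KIF23 act at the central spindle in cytokinesis. Transport kinesins such as KIF5B (conventional kinesin) and the KIF3 heterotrimer carry organelles, vesicles and protein complexes towards microtubule plus ends in interphase. Many mitotic kinesins are transcribed mainly in G2 and M phase, and KIF18A is known for its importance to chromosomally unstable tumour cells.

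Each library held between 38597809 and 40017561 counts. MTHFD2 transcript stood between 319 and 457 counts per 1000000 (CPM, scaled by the trimmed mean of M-values, TMM) in the 6 WT libraries and between 123 and 155 CPM in the 6 KO libraries, a log2 fold change of -1.48 ± 0.08 (SE; edgeR quasi-likelihood adjusted p = 3.39e-10) over both harvests. The libraries matched their genotype labels in this respect. Markers of colon epithelium summed to between 2660 and 3990 CPM, lower in KO at 5 of 7 genes over both harvests; their part in the kinesin results was not tested. Markers of leukocytes summed to at most 1.96 CPM with CD3E at 0 counts, endothelial markers to at most 2.22 CPM, and muscle markers to at most 9.8 CPM. The 4 fibroblast markers summed to between 36.2 and 77.3 CPM, which came from COL1A1, while DCN and LUM were at 0. Over both harvests COL1A1 was lower in KO (-0.54 on the log2 scale; edgeR adjusted p = 0.000288), and the muscle marker ACTA2 (0.86; 1.36e-05) and the leukocyte marker LYZ (1.98; 9.89e-08) were higher; their part in the kinesin results was not tested.

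All 38 kinesins passed the filter on low counts, and 18289 genes were tested. Even so, 4 had too few counts for their levels to be read closely: KIF1A with 4 to 20 counts per library, KIF6 with 1 to 18, KIF19 with 3 to 40, and KIF26B with 2 to 21. Of these, KIF6 passed the filter only through its KO libraries, and KIF19 only with its WT final libraries. Scaled for both depth and gene length (RPKM, reads per kilobase per 1000000 counts), the most abundant kinesin was the transport motor KIF5B at 49.5, followed by the mitotic KIF2C at 40.6, KIF22 (a chromokinesin) at 39.3 and KIF20A at 35.8, as means of 12 libraries. The mitotic kinesins had a median level of 22.4 RPKM and ranged from 2.69 for KIF15, which backs up KIF11, to that of KIF2C. Transport kinesins had a median of 3.13 RPKM and the remaining kinesins one of 1.21 RPKM, with the highest of the latter, KIF21A, at 6.28. KIF18A stood eighth at 24.7 RPKM, next to KIF23 at 24.7 and its close relative KIF18B at 24.6; the 3 means lay within the spread of each gene over the groups. By CPM, without regard to length, KIF18A ranked 9 of 38. Genes on the other strand overlap from 5.06% to 18.7% of the exonic bases of KIF24, KIF20A, KIFC3, KIF13B, KIF27, KIF7, KIF22, KIFC1, KIF9, KIFC2 and KIF2A; the strand setting of the counting is not given in the sources used here, and without strand the reads of such pairs cannot be told apart.

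**Figure D1:**
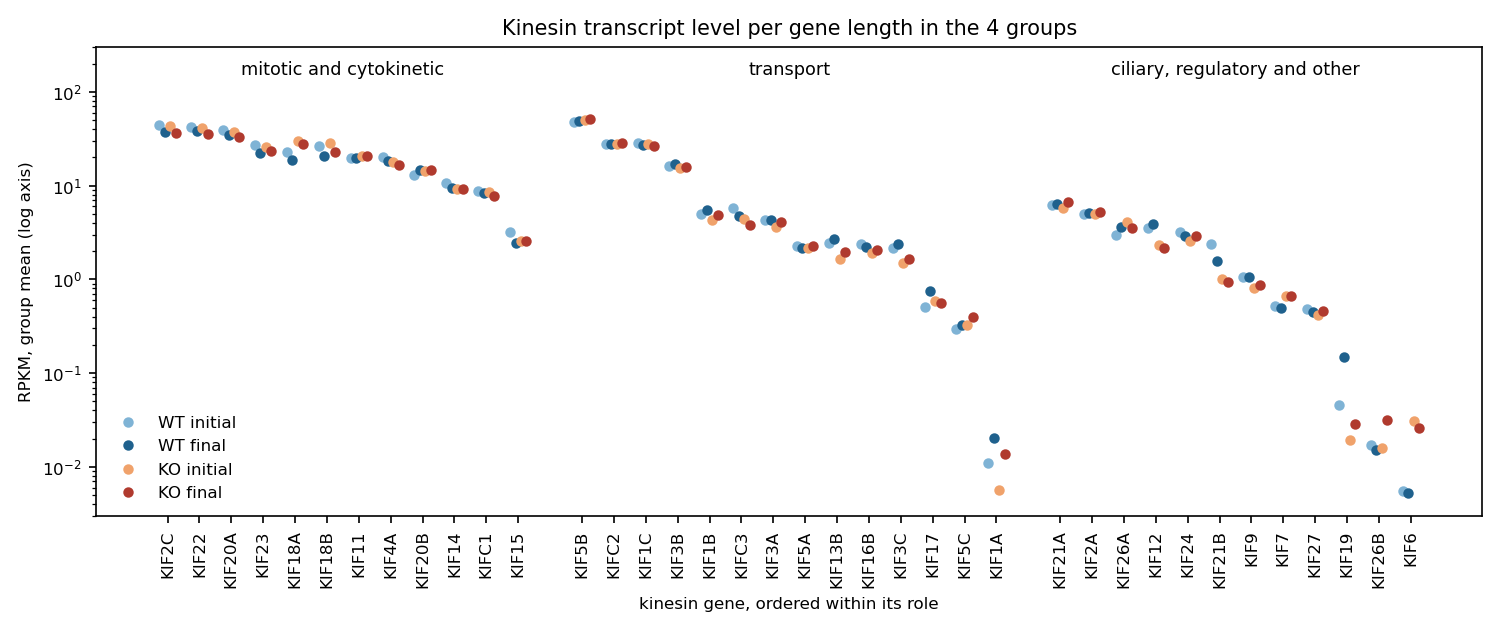
Mean RPKM of each of the 38 kinesins in the 4 groups of 3 libraries, on a log axis, ordered within each role by the mean of all libraries. Group means of mitotic kinesins lie between 2.44 RPKM (KIF15, WT final) and 44.7 RPKM (KIF2C, WT initial), and those of transport kinesins between 0.00565 (KIF1A, KO initial) and 51.3 RPKM (KIF5B, KO final).

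Which kinesins differed between the genotypes was asked at each harvest, and over both harvests together. At the initial harvest 12 of the 38 kinesins were called, meaning an adjusted p under 0.05 over all genes (edgeR quasi-likelihood test, Benjamini-Hochberg), against 19.9% of all genes tested. The 3 higher in KO were KIF18A, KIF6 and KIF26A, beside a background of 8.55% of genes called higher, and the 9 lower stand beside 11.3% called lower. At the final harvest 8 were called, beside 18.5% of all genes, with 2 higher (background 8.38%) and 6 lower (background 10.2%). Over both harvests 12 were called, beside 30.1% of all genes, with 3 higher (background 14%) and 9 lower (background 16.1%). Called at both harvests were 7 kinesins, each in the same direction: KIF18A and KIF6 higher, and KIF3C, KIF13B, KIFC3, KIF12 and KIF21B lower. The share of all genes called at both harvests was not counted. Both comparisons use the same knock-out clone, so this overlap is a description only. KIF6 is counted here although it passed the low-count filter only through KO.

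Of the 12 mitotic kinesins, 1 rose and 1 fell at the initial harvest, 1 rose and 0 fell at the final harvest, and over both harvests KIF18A alone was called. Their called shares were 16.7% initially, 8.33% finally and 8.33% over both, beside 19.9%, 18.5% and 30.1% of all genes. Of the 14 transport kinesins, 0 rose in any genotype comparison, while 4 fell initially, 3 finally and 5 over both. That is 28.6%, 21.4% and 35.7%, beside the same 19.9%, 18.5% and 30.1% of all genes called in either direction. Genes called lower made up 11.3%, 10.2% and 16.1% of all genes. The remaining 12 kinesins had the highest called shares of the roles, 50%, 33.3% and 50%. These include KIF6 in each comparison, and KIF19 finally and over both, on few counts. The median log2 fold change over both harvests was -0.05 for mitotic, -0.12 for transport and -0.06 for the remaining kinesins, beside 0.00 for all genes tested. No test compares the roles as groups, and the medians are small beside the changes of single members.

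**Figure D2:**
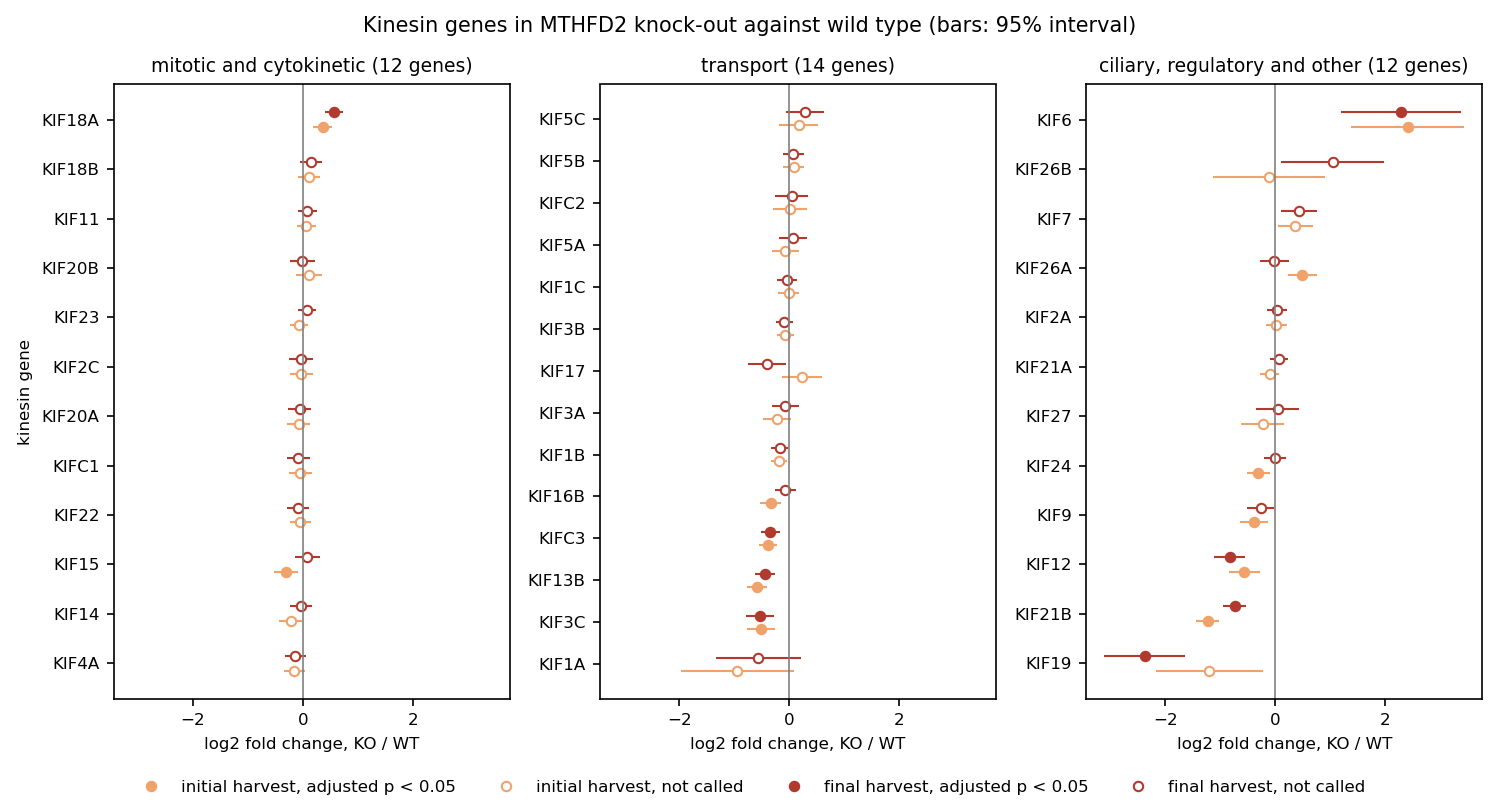
Log2 fold change of KO over WT for each kinesin at the initial (orange) and final (dark red) harvest, with 95% intervals from edgeR; filled points passed an adjusted p under 0.05. Among mitotic kinesins KIF18A lies to the right of 0 at both harvests, at 0.36 and 0.56, while the called transport kinesins all lie to the left.

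KIF18A was higher in the knock-out at both harvests. Its gene lies on the minus strand at chr11:28020619-28108156 (hg38), with 4517 exonic bases in the deposited annotation. WT initial libraries held 105, 100 and 107 CPM, and KO initial libraries 127, 131 and 142 CPM. WT final libraries held 86.5, 80.2 and 87.1 CPM, and KO final libraries 137, 119 and 120 CPM. All 6 KO libraries therefore lay above all 6 WT libraries. The log2 fold change was 0.36 ± 0.08 (SE, n = 3 against 3; edgeR adjusted p = 0.00417) at the initial harvest, a 1.28-fold level, and 0.56 ± 0.08 (adjusted p = 8.79e-05 from edgeR), a 1.48-fold level, at the final harvest. Over both harvests it was 0.46 ± 0.06 (edgeR adjusted p = 9.78e-06), or 1.38-fold with a 95% interval of 1.27 to 1.49. Tested against a 1.2-fold change instead of against 0, the initial difference was no longer called (adjusted p = 0.25 from edgeR), while the final one was.

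KIF18B, the other plus-end depolymerizing kinesin-8 of mitosis, did not pass the test between genotypes. It held 129, 136 and 110 CPM in WT initial, 144, 132 and 130 in KO initial, 108, 89.6 and 91.9 in WT final, and 108, 110 and 103 in KO final. The genotypes overlapped at both harvests, and the log2 fold change over both was 0.13 ± 0.07 (edgeR adjusted p = 0.16). KIF15, a plus-end motor that can stand in for KIF11, passed the threshold at the initial harvest by a very small margin. It held 15.3, 18.7 and 16.5 CPM in WT initial against 12.4, 14.6 and 13.9 in KO initial, and 13.4, 12.3 and 12.9 in WT final against 13.3, 12.3 and 15.1 in KO final. The initial groups did not overlap and the final groups did. Its log2 fold change was -0.31 ± 0.11 (edgeR adjusted p = 0.04998) initially and 0.08 ± 0.11 (adjusted p = 0.678) finally. The initial call was lost when any 1 of 10 libraries was left out, that is, each one except WT initial replicate 1 and WT final replicate 1, with adjusted p between 0.0509 and 0.21, and also under 2 other scalings.

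The remaining 10 mitotic kinesins at the initial harvest, KIF18B among them, had log2 fold changes between -0.23 for KIF14, which acts in cytokinesis, and 0.11 for KIF20B. Their 95% intervals stayed between -0.43 and 0.35, or 0.742-fold to 1.27-fold, so larger differences than these lie outside every interval. At the final harvest the 11 that were not called ranged from -0.14 for KIF4A, a chromokinesin, to 0.15 for KIF18B, with intervals between 0.799-fold and 1.27-fold. KIF11 stood at 106 ± 4.79 CPM (SD, n = 3) in WT initial, 110 ± 3.42 in KO initial, 104 ± 5.5 in WT final and 110 ± 9.47 in KO final. KIF2C stood at 163 ± 17.2, 159 ± 9.05, 137 ± 13.6 and 134 ± 11.8 CPM in the same order. KIF23, a subunit of centralspindlin, stood at 178 ± 9.86, 170 ± 5.28, 148 ± 11 and 155 ± 3.55 CPM. KIF4A has a near-identical retrocopy, KIF4B, which held 1 to 9 counts per library, so reads of KIF4A that map to both may be missing from its count.

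Genes of the cell cycle were read beside the mitotic kinesins. Of 16 G2 and M phase genes outside the family, 1 was called higher and 0 lower at each harvest, CDC20 (0.37 ± 0.12, edgeR adjusted p = 0.0371) initially and CDC25C (0.39 ± 0.10, adjusted p = 0.0118) finally, beside 8.55% and 8.38% of all genes called higher. Over both harvests 5 of the 16 were called higher, led by CDC25C at 0.26 and AURKA at 0.24, beside 14% of all genes, and their median log2 fold change was 0.16. Of 13 S phase genes 0 were called at either harvest (edgeR; 2 at an unadjusted p under 0.05 in each) and 2 were called higher over both, with a median of 0.03. In bulk RNA, more cells in a phase and more transcript per cell cannot be told apart. The part of cell-cycle position in the KIF18A difference was not tested.

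Promoter sequence is shown because most mitotic members hold TTTGAA there and most transport members do not, and because KIF18A can be set beside mitotic kinesins that did not move with it. The 120 bases before the transcription start, or 91 for KIF18A, where an exon of a gene on the other strand begins, are given 5′ to 3′ on the gene's strand, from RefSeq on GRCh38. They are those of KIF18A (chr11:28108157-28108247, minus strand), KIF18B (chr17:44947774-44947893, minus), KIF4A (chrX:70289984-70290103, plus), KIF11 (chr10:92593010-92593129, plus), KIF14 (chr1:200620752-200620871, minus) and, of the transport kinesins, KIF16B (chr20:16573449-16573568, minus). None of these stretches overlaps an exon of the deposited annotation. Capitals mark TTTGAA, the core of the cell cycle genes homology region, and CCAAT, the CCAAT box, on either strand (TTCAAA and ATTGG where the match is on the other strand).
KIF18A: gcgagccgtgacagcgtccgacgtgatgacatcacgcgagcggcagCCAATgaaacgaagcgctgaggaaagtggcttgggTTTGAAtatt
KIF18B: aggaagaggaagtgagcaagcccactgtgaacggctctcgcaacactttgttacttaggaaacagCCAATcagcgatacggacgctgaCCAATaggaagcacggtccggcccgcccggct
KIF4A: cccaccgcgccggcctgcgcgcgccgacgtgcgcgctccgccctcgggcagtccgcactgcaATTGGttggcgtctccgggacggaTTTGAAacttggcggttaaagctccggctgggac
KIF11: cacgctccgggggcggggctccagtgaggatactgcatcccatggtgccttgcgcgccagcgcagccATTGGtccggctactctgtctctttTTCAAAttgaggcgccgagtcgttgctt
KIF14: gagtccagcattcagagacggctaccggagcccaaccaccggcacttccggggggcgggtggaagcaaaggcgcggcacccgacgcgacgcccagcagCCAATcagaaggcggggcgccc
KIF16B: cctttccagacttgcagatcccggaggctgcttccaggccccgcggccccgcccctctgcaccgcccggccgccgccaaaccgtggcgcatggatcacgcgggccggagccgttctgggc

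A promoter window of 300 bases, from 250 before to 50 after the start, was present for 30 of the 38 kinesins. TTTGAA on either strand was found in 9 of 12 mitotic kinesins, 1 of 10 transport kinesins (KIF5B) and 0 of 8 others, while 18.2% of all genes in the table held it in at least 1 window. CCAAT was found in 10 of 12 mitotic, 4 of 10 transport and 3 of 8 other kinesins, beside 39.7% of all genes. KIF18A held CCAAT with its first base 45 bases before the start and TTTGAA 10 bases before it. KIF4A and KIF11, which were not called between genotypes, held the same pair of motifs, and KIF18B and KIF14 held TTTGAA just past the start, outside the stretches shown. The match is a description of letters, not of a bound site. KIF16B held neither motif in its window.

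Among transport kinesins the calls were all decreases in the knock-out. KIF13B, which carries vesicles and membrane proteins, held 27.6, 25.3 and 29.4 CPM in WT initial against 18.2, 19.9 and 16.9 in KO initial. Its WT final libraries held 30.8, 29.8 and 28.9 CPM against 22.1, 21.3 and 22.7 in KO final, so that every KO library lay below every WT library. Its log2 fold change was -0.58 ± 0.09 (edgeR adjusted p = 0.000148, n = 3 against 3) initially and -0.44 ± 0.09 (adjusted p = 0.00171) finally.

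KIF3C, the neuronal-type partner of KIF3A in kinesin-2, fell by 0.51 ± 0.12 on the log2 scale initially (edgeR adjusted p = 0.00531) and by 0.53 ± 0.12 finally (adjusted p = 0.00384). Its group means were 13.8 ± 0.821 CPM (SD, n = 3) in WT initial, 9.69 ± 0.838 in KO initial, 15.3 ± 1.68 in WT final and 10.6 ± 1.42 in KO final. The other kinesin-2 motors were not called: KIF3A had a log2 fold change over both harvests of -0.15 ± 0.08 (edgeR adjusted p = 0.211), KIF3B one of -0.08 ± 0.05 (0.31), and KIF17, the homodimeric member, one of -0.08 ± 0.12 (0.643). KIFC3, a minus-end directed motor of apical transport and cell junctions, stood at 54.9 ± 3.43 CPM in WT initial and 42.1 ± 1.61 in KO initial, and at 45.7 ± 2.27 in WT final and 36.0 ± 2.08 in KO final. It fell by 0.38 ± 0.08 on the log2 scale initially (edgeR adjusted p = 0.00253) and by 0.34 ± 0.08 finally (adjusted p = 0.00569).

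KIF16B, an early endosome motor, was called lower initially (-0.34 ± 0.09; edgeR adjusted p = 0.0136), with 18.6 ± 0.745 CPM in WT and 14.7 ± 0.428 in KO, but not finally (-0.07 ± 0.09; adjusted p = 0.644). That initial call was lost without KO initial replicate 1 (adjusted p = 0.0563) or replicate 3 (0.0527). Over both harvests it was -0.20 ± 0.06 (adjusted p = 0.0215 from edgeR), and this call was lost without WT final replicate 2, KO initial replicate 1 or KO final replicate 3 (0.0505 to 0.0583). KIF1B, a carrier of mitochondria and synaptic vesicle precursors, was called over both harvests only, at -0.18 ± 0.05 (edgeR adjusted p = 0.0124), or 0.882 of the WT level. It stood at 88.5 ± 4.15, 77.7 ± 4.49, 99.6 ± 0.515 and 88.2 ± 2.27 CPM in WT initial, KO initial, WT final and KO final.

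The most abundant transport motors were not called. KIF5B had a log2 fold change over both harvests of 0.08 ± 0.07 (edgeR adjusted p = 0.405), KIF1C, a motor of Golgi and integrin transport, one of -0.03 ± 0.06 (0.789), and KIFC2 one of 0.03 ± 0.10 (0.851). The kinesin-1 genes best known from neurons behaved likewise: KIF5A was at 0.00 ± 0.09 (edgeR adjusted p = 0.978) and KIF5C at 0.23 ± 0.12 (0.15). KIF1A, an axonal vesicle motor, rested on a summed 24 counts in WT initial, 12 in KO initial, 41 in WT final and 29 in KO final; its value over both harvests was -0.75 ± 0.30 (edgeR adjusted p = 0.0732).

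KIF21B, which limits microtubule growth and is known mainly from neurons and lymphocytes, was lower in the knock-out at both harvests. It held 30.7, 25.8 and 29.9 CPM in WT initial and 12.4, 12.7 and 11.6 in KO initial. At the final harvest it held 20.5, 19.8 and 17.4 CPM in WT and 11, 11.2 and 12.2 in KO. All KO libraries lay below all WT libraries. The log2 fold change was -1.23 ± 0.10 (edgeR adjusted p = 1.41e-07, n = 3 against 3), or 0.425 of the WT level, initially, and -0.74 ± 0.10 (adjusted p = 4.01e-05), or 0.597 of it, finally. Its paralogue KIF21A was not called (-0.02 ± 0.06 over both harvests; edgeR adjusted p = 0.79), nor was the depolymerase KIF2A (0.02 ± 0.06; 0.829).

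**Figure D3:**
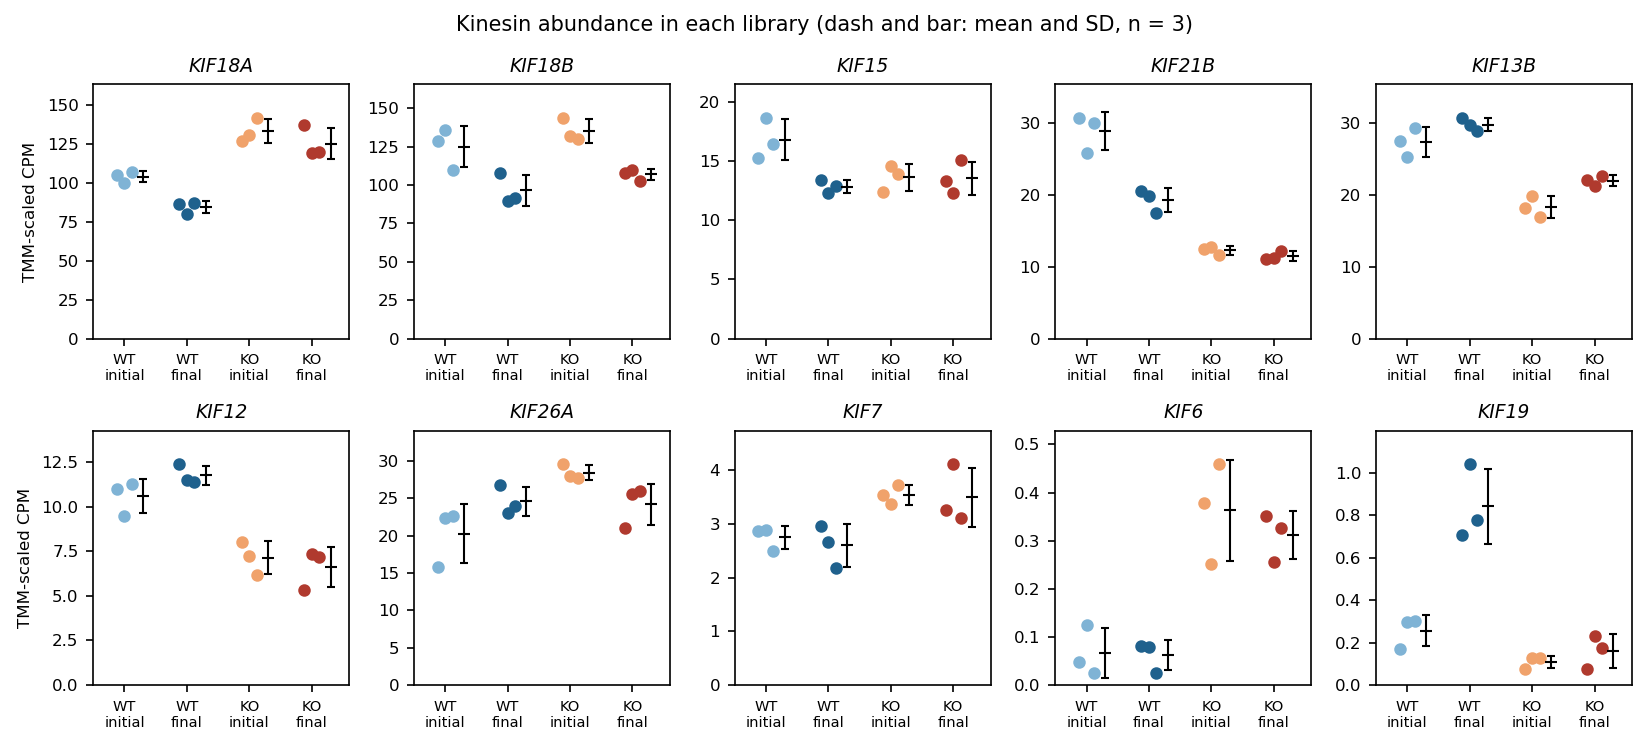
TMM-scaled CPM of 10 kinesins in each library, by group, with the mean and SD of 3 libraries at the right of each group; every axis starts at 0. KIF18A is higher in all KO than in all WT libraries, KIF21B, KIF13B and KIF12 are lower, and KIF6 and KIF19 lie near or under 1 CPM.

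KIF12, known from kidney and bile duct epithelium, held 11, 9.51 and 11.3 CPM in WT initial against 8.02, 7.24 and 6.18 in KO initial. In the final libraries it held 12.4, 11.5 and 11.4 CPM in WT against 5.31, 7.37 and 7.18 in KO. The genotypes did not overlap, and the log2 fold changes were -0.57 ± 0.13 (edgeR adjusted p = 0.00567) and -0.83 ± 0.13 (adjusted p = 0.000269). KIF7, a regulator of Hedgehog signalling at the tip of the cilium, went the other way. Its WT libraries held 2.86, 2.89 and 2.5 CPM initially and 2.96, 2.66 and 2.17 finally, and its KO libraries 3.53, 3.36 and 3.73, then 3.25, 4.11 and 3.11. It was called only over both harvests, at 0.39 ± 0.11 (edgeR adjusted p = 0.00972), where no KO library overlapped a WT library.

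KIF26A, an atypical kinesin without motor activity, was called higher in KO at the initial harvest only. It held 15.8, 22.4 and 22.7 CPM in WT initial against 29.6, 28.0 and 27.8 in KO initial, and 26.8, 23.0 and 24.0 in WT final against 21, 25.6 and 26 in KO final. The initial groups were apart, with WT replicate 1 the lowest, and the final groups overlapped. The log2 fold change was 0.49 ± 0.13 (edgeR adjusted p = 0.011) and then -0.02 ± 0.13 (adjusted p = 0.933), but the test of that difference did not pass (interaction -0.51 ± 0.18, adjusted p = 0.22). Over both harvests KIF26A was at 0.23 ± 0.09, just short of a call (edgeR adjusted p = 0.0572). DESeq2, upper-quartile scaling, the fit without a filter on low counts and some fits with 1 library left out did call it higher over both.

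KIF9, which acts in motile cilia, stood at 6.27 ± 0.736 CPM in WT initial, 4.78 ± 0.137 in KO initial, 6.15 ± 0.409 in WT final and 5.1 ± 0.315 in KO final. It was called initially at -0.39 ± 0.12 (edgeR adjusted p = 0.0269) and over both harvests at -0.33 ± 0.08 (0.00602); the first call was lost without WT initial replicate 2 or 3 or any 1 of the KO initial libraries (0.0624 to 0.0984). KIF24, a centriolar regulator of cilium formation, stood at 20.9 ± 1.52, 16.8 ± 0.92, 18.8 ± 2.05 and 18.7 ± 1.26 CPM in the same order. Its initial value of -0.32 ± 0.10 (edgeR adjusted p = 0.0328) lost its call without WT initial replicate 1 or 2, WT final replicate 3 or any 1 of the KO initial libraries (0.0504 to 0.117). KIF27, a Hedgehog-related relative of KIF7, was not called (-0.10 ± 0.13 over both harvests; edgeR adjusted p = 0.635).

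KIF6 and KIF19 differed by large factors on few counts. Each WT library held 1 to 5 counts of KIF6 and each KO library 10 to 18, so KIF6 passed the low-count filter only through KO. KIF19 had 26 to 40 counts in the WT final libraries and at most 12 elsewhere, and passed only with WT final. Their tests and the lack of overlap are therefore description, not support for a difference. KIF6 held 0.0488, 0.124 and 0.025 CPM in WT initial, 0.378, 0.251 and 0.459 in KO initial, 0.0814, 0.0782 and 0.0259 in WT final and 0.352, 0.255 and 0.327 in KO final. All KO libraries lay above all WT libraries, but the sums were 8 against 43 counts initially and 7 against 37 finally, which give ratios of 5.49 (95% counting interval 2.55 to 13.5) and 5.07 (2.23 to 13.5). The edgeR log2 fold changes were 2.40 ± 0.48 (adjusted p = 0.00202) and 2.28 ± 0.51 (adjusted p = 0.00464). KIF19, which shortens motile cilia, held 0.171, 0.297 and 0.3 CPM in WT initial against 0.0757, 0.125 and 0.128 in KO initial. It held 0.706, 1.04 and 0.776 CPM in WT final against 0.0755, 0.23 and 0.176 in KO final. WT final libraries stood above all others, with 96 counts against 19 in KO final, a ratio of 0.19 (0.11 to 0.313), and a log2 fold change of -2.37 ± 0.35 (edgeR adjusted p = 0.000121). The initial difference in KIF19 was not called (-1.20 ± 0.46; adjusted p = 0.0775 from edgeR). KIF26B, with 30, 27, 25 and 54 counts in WT initial, KO initial, WT final and KO final, was not called in the comparisons of genotype. Its log2 fold change at the final harvest was 1.04 ± 0.44 (edgeR adjusted p = 0.118). That harvest was called with only the groups compared, and without WT initial replicate 1. The KO to WT ratios were 0.92 (95% counting interval 0.526 to 1.6) initially and 2.07 (1.27 to 3.47) finally. Such intervals cover counting error only.

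Whether kinesin levels moved over 2 months of culture was asked within each genotype. In WT 5 kinesins were called, beside 6.47% of all genes: KIF19 higher (background 3.05% called higher), and KIF18A, KIF18B, KIF15 and KIF21B lower (background 3.42% called lower). Mitotic kinesins gave 3 of these decreases, with 11 of 12 values below 0 and a median log2 change of -0.18, against 8937 of 18289 below 0 and a median of 0.01 for all genes. Transport kinesins gave 0 calls in WT (edgeR, with 4 at an unadjusted p under 0.05, while DESeq2 called KIF17 and KIFC3). Their values in WT were above 0 for 10 of 14, beside 9352 of 18289 genes, with a median of 0.05. In KO 0 kinesins were called in edgeR, beside 1.48% of all genes; 8 had an unadjusted p under 0.05, and DESeq2 called 1, KIF18B. The mitotic kinesins nonetheless had 10 of 12 values below 0 in KO, beside 8980 of 18289 genes, with a median of -0.13. The transport kinesins had 11 of 14 values above 0 in KO, beside 9304 of 18289 genes, with a median of 0.10.

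KIF18B changed by -0.37 ± 0.09 in WT (edgeR adjusted p = 0.0247) and by -0.34 ± 0.09 in KO (0.0957), with an interaction of 0.04 ± 0.13 (0.945); its final libraries lay below its initial ones in each genotype. KIF18A changed by -0.30 ± 0.08 in WT (edgeR adjusted p = 0.0354) and by -0.09 ± 0.08 in KO (0.643), and the test of the difference between these did not pass (interaction 0.21 ± 0.11, adjusted p = 0.485). KIF15 changed by -0.39 ± 0.11 in WT (edgeR adjusted p = 0.037) and 0.00 ± 0.11 in KO (1.0), with an interaction of 0.39 ± 0.15 (0.287). These WT calls were marginal: the KIF18A call was lost without WT initial replicate 1 or 3, WT final replicate 2 or 3, KO initial replicate 1 or 2, or KO final replicate 3 (adjusted p 0.0501 to 0.183). The KIF18B call was lost without WT initial replicate 1 or 2 or WT final replicate 2 or 3 (0.0598 to 0.148), and the KIF15 call without replicate 2 or 3 of WT initial, WT final or KO initial, or without KO final replicate 1 (0.0536 to 0.163). With each library left out, the log2 changes themselves stayed between -0.327 and -0.253 for KIF18A, -0.471 and -0.313 for KIF18B, and -0.453 and -0.312 for KIF15. With 1 of these libraries left out the number of kinesins called in WT went as low as 2, without WT final replicate 2 or 3, and was 3 without WT initial replicate 2 or 3 or KO initial replicate 2.

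**Figure D4:**
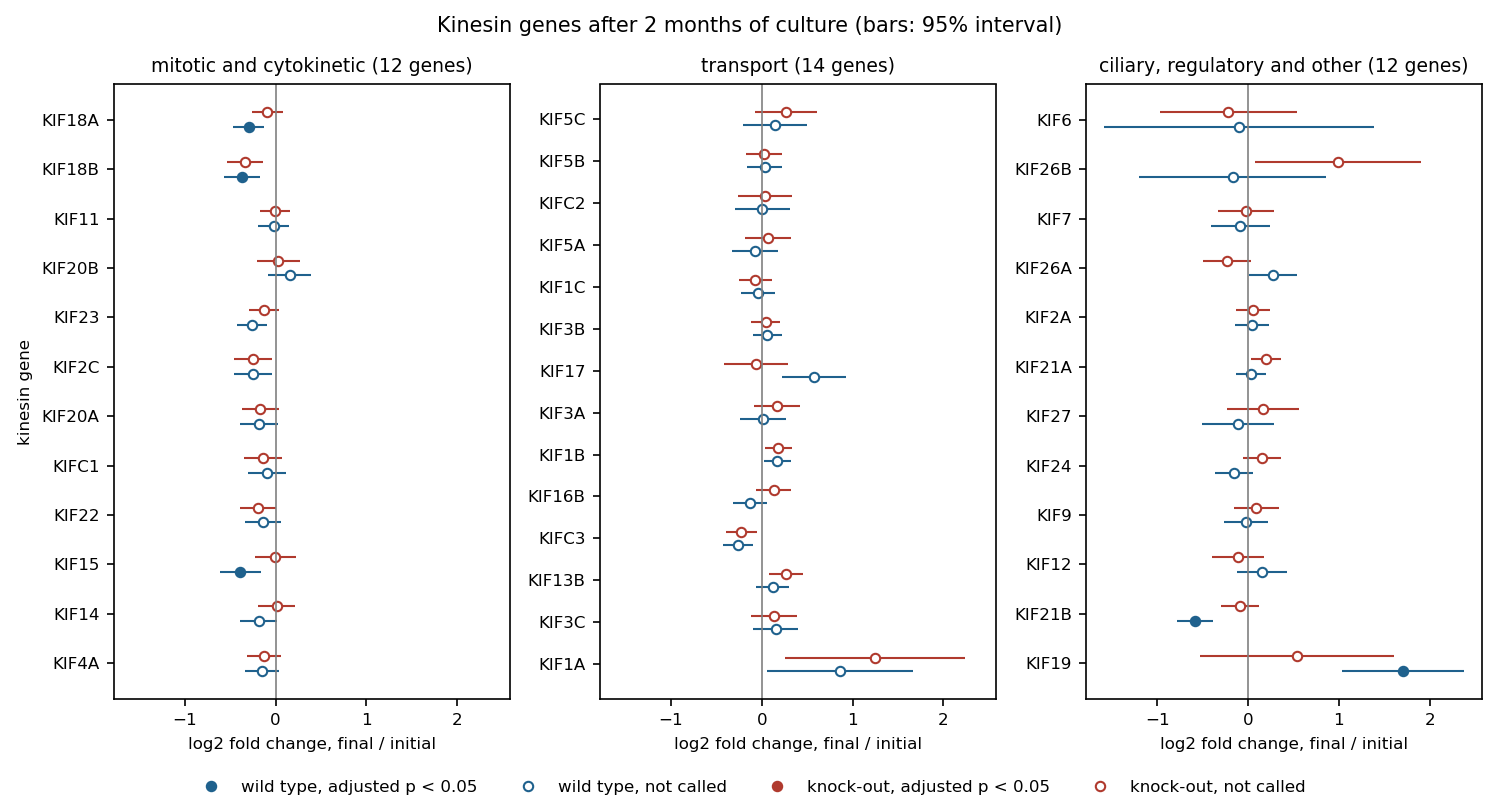
Log2 change from the initial to the final harvest for each kinesin in WT (blue) and KO (dark red), with 95% intervals from edgeR; filled points passed an adjusted p under 0.05. The mitotic values lie mostly left of 0, 11 of 12 in WT and 10 of 12 in KO. Transport values lie more often right of 0, 10 of 14 in WT and 11 of 14 in KO.

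KIF21B fell by 0.58 ± 0.10 on the log2 scale in WT (edgeR adjusted p = 0.0013), towards its KO level, and stood at -0.09 ± 0.10 in KO (0.721). The interaction for KIF21B was 0.49 ± 0.14 (edgeR adjusted p = 0.108); it was called by DESeq2 and by edgeR without WT initial replicate 2. KIF19 rose in WT by 1.71 ± 0.32 (edgeR adjusted p = 0.00344), from 31 to 96 counts, a ratio of 3.3 (95% counting interval 2.18 to 5.12). It passed the low-count filter only with the WT final libraries, where it is high, so this rise is description only. Of the interaction of genotype and harvest, 0 of 38 kinesins were called in edgeR, beside 1.28% of all genes, while 5 had an unadjusted p under 0.05 and DESeq2 called 1. KIF17 gave -0.64 ± 0.24 in that test (edgeR adjusted p = 0.264), from 2.24 ± 0.256 to 3.33 ± 0.394 CPM in WT and from 2.63 ± 0.525 to 2.52 ± 0.28 CPM in KO.

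Summed per gene length, the 12 mitotic kinesins gave 272, 297 and 265 RPKM in WT initial, 263, 226 and 243 in WT final, 272, 287 and 277 in KO initial, and 259, 241 and 252 in KO final. The 14 transport kinesins gave sums between 140 and 146 RPKM in every library. These sums rest mostly on KIF5B, KIFC2 and KIF1C, at means of 49.5, 28.1 and 27.5 RPKM, which were not called. The transport kinesins called lower in KO had means from 1.93 (KIF3C) to 4.93 RPKM (KIF1B), so the sums and ratios say little about them. The mitotic to transport ratio was 1.92 ± 0.117 (SD, n = 3) in WT initial and 1.96 ± 0.0153 in KO initial, then 1.68 ± 0.13 in WT final and 1.74 ± 0.0513 in KO final. The genotypes overlapped at each harvest, and in each genotype all final ratios were below all initial ratios. Among the 16 G2 and M phase genes, 1 was called lower over time in WT, CDC25C (-0.40 ± 0.10, edgeR adjusted p = 0.0233), beside 3.42% of all genes. Values were below 0 for 12 of 16 in WT and 14 of 16 in KO, beside 8937 and 8980 of 18289 genes. The part of the G2 and M phase genes in the kinesin change was not tested. Libraries of a harvest may also share a preparation, which the labels do not give, so harvest and preparation cannot be told apart.

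**Figure D5:**
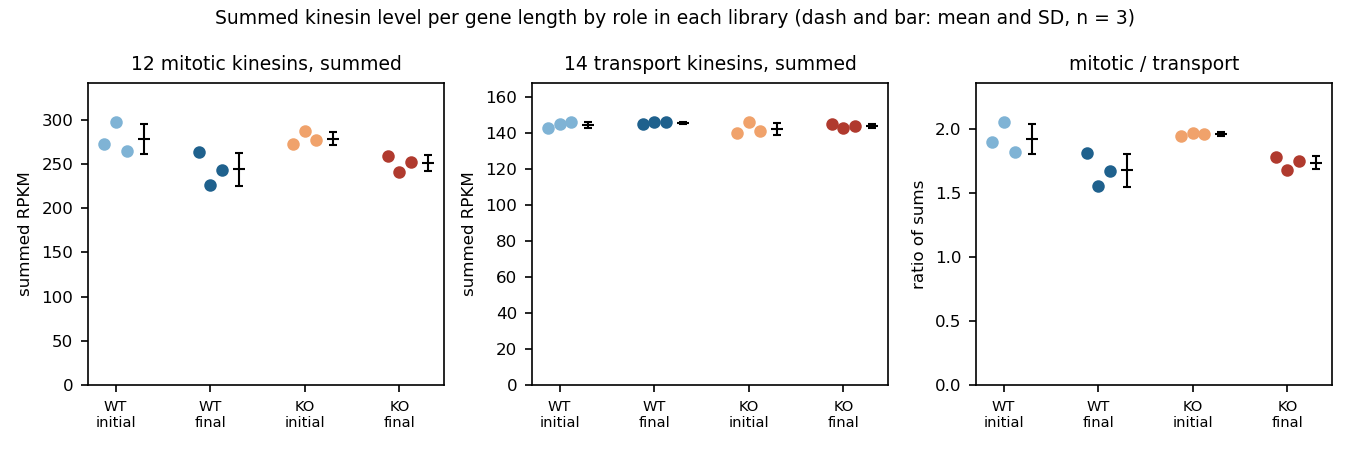
Summed RPKM of the 12 mitotic and of the 14 transport kinesins, and the ratio of these sums, in each library, with the mean and SD of 3 libraries; every axis starts at 0. The mitotic sum is lower at the final than at the initial harvest in both genotypes, while transport sums lie between 140 and 146 RPKM.

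The partners of the kinesins were read from lists by role. Of 13 cargo adaptors and light chains in the table, 0 rose, while 3 fell initially, 5 finally and 7 over both. Of all genes, 11.3%, 10.2% and 16.1% were called lower, and 19.9%, 18.5% and 30.1% in either direction. KIFAP3, the cargo-binding subunit of the KIF3 heterotrimer, stood at 23.5 ± 1.53 CPM in WT initial and 15.9 ± 0.665 in KO initial, and at 25.4 ± 1.36 in WT final and 17.8 ± 0.734 in KO final; its log2 fold change over both was -0.54 ± 0.06 (edgeR adjusted p = 3.39e-06). KLC3, a kinesin-1 light chain, fell by 0.58 ± 0.16 at the final harvest (edgeR adjusted p = 0.0167). Of 21 dynein and dynactin genes, 1 rose and 2 fell initially, 2 rose and 4 fell finally, and 2 rose and 5 fell over both, beside 19.9%, 18.5% and 30.1% of all genes called. DYNC1H1, the heavy chain of cytoplasmic dynein, the main motor towards minus ends, fell by 0.73 ± 0.07 over both harvests (edgeR adjusted p = 5.55e-07). DYNC1I1, an intermediate chain, rose by 1.85 ± 0.24 (adjusted p = 1.54e-05) but had only 3 to 27 counts per library, and the light chain DYNLL2 rose by 0.26 ± 0.08 at the final harvest (0.0306).

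Of 17 spindle and midzone partners in the table, 0 rose and 3 fell initially, 0 rose and 2 fell finally, and 4 rose and 3 fell over both, with a median log2 fold change of 0.03; the shares called among all genes were again 19.9%, 18.5% and 30.1%. TACC3, which cross-links kinetochore fibre microtubules, fell by 0.47 ± 0.06 over both harvests (edgeR adjusted p = 1.42e-05), and CIT, the citron kinase of the midbody that binds KIF14, by 0.44 ± 0.06 (2.88e-05). NUMA1, which anchors dynein at spindle poles, fell by 0.40 ± 0.08 initially (edgeR adjusted p = 0.00175). HMMR, a spindle protein, was at 0.23 ± 0.06 over both (adjusted p = 0.0101 from edgeR).

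A few kinesins outside the 38 were read as well. KIF13A, the nearest relative of KIF13B and an endosome motor, fell by more than any called transport member: 42.9 ± 1.88 CPM in WT initial and 48.5 ± 1.02 in WT final against 19.8 ± 0.203 in KO initial and 21.2 ± 0.458 in KO final, a log2 fold change over both of -1.15 ± 0.05 (edgeR adjusted p = 6.31e-11). All 10 of its nearest tested genes on chromosome 6, 5 on each side, were also below 0, with a median of -1.18. By the same measure the neighbours of KIF18A had a median of 0.08, those of KIF21B -0.13, those of KIF13B -0.18, those of KIF3C 0.01, those of KIFC3 0.03 and those of KIF12 -0.06. CENPE, the kinetochore kinesin, was not called (-0.16 ± 0.07 over both; edgeR adjusted p = 0.0992). KIF25 held 2 to 7 counts per library and KIF2B held 0.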

How the data were processed

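Per the submitters' processing notes, reads were processed with STAR and with featureCounts of the Subread package on hg38; versions, the annotation release and the strand setting are not given in the sources used here. The deposited values are raw gene counts, whole numbers for 12 libraries, beside gene lengths. From the table, 5 broken lines of 1 gene were left out. Where identifiers shared a version with GENCODE 29 (37318), their GRCh38 coordinates were the same.

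From the counts, edgeR 4.0.16 in R 4.3.3 fitted 4 group means over all 12 libraries (filterByExpr by group, TMM scaling, robust quasi-likelihood test), with Benjamini-Hochberg adjustment over 18289 genes; the procedure was tested on simulated data. CPM and RPKM were computed from the same scaled library sizes. Depth differed by a factor of 1.037 between libraries. The 6 comparisons were knock-out against wild type at each harvest and over both, final against initial in each genotype, and the interaction.

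The members and lists were chosen with earlier results of these data known. Values in every library are given for KIF18A and for up to 3 called kinesins in each direction of each comparison; of partners and cell-cycle genes, up to 2 in each direction of each genotype comparison, with a few kinesins outside the members. Partners beyond that, and the choice of neighbouring genes and of the promoters printed, were picked after values were seen. Alternatives were other scalings, no filter, a replicate block, a test against a 1.2-fold change, only the groups compared, DESeq2 1.42.0, each library left out, and another assignment of roles (KIF2A and KIF24 mitotic, KIF21A and KIF21B transport). No protein sequence was used here.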

Additional observations from a re-analysis of the deposited data

How the results depend on the processing

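Of 37 calls of single kinesins over the 6 comparisons, 19 held under every alternative that could be run, 18 were lost under at least 1, and 0 reversed. The 19 count KIF6 at the initial harvest, which could not be tested with only the groups compared. They also hold the other calls of KIF6 and those of KIF19, which passed the filter only through their high libraries. A kinesin can count in several comparisons, which share libraries, so the 37 are not separate results. The counts called under each alternative are not set beside the share of all genes called under it. They show only which calls depend on the setting. Tested against a 1.2-fold change, 4 kinesins were called at the initial harvest (KIF6, KIF13B, KIF12 and KIF21B), 6 at the final harvest (all but KIF13B and KIFC3), 7 over both (all but KIF1B, KIF7, KIF9, KIF16B and KIFC3) and 2 over time in WT (KIF19 and KIF21B). With only the groups compared in the fit, 2 were called over time in WT and 1 in KO, and KIF6 did not pass the filter at the initial harvest. DESeq2 called 8 over time in WT, 1 in KO and 1 interaction, and without a filter on low counts 1 was called over time in KO. Each library left out in turn gave 2 to 6 calls over time in WT and 0 to 1 interactions, the latter KIF21B without WT initial replicate 2. Under upper-quartile scaling the transport median log2 fold change was -0.053 at the final harvest and -0.094 over both. With the other roles, the transport median of the interaction was 0.079, and the medians of the remaining kinesins were 0.069 over both harvests and -0.028 for the interaction. With each library left out, the mitotic median ranged from -0.091 to 0.041 at the final harvest and from -0.256 to -0.119 over time in WT. The transport median ranged from -0.210 to -0.102 initially, from -0.131 to -0.081 finally, from -0.167 to -0.100 over both, from 0.029 to 0.090 over time in WT, from 0.068 to 0.110 in KO, and from 0.021 to 0.070 for the interaction. That of the remaining kinesins ranged from -0.266 to -0.145 initially, from -0.048 to 0.048 finally, from -0.094 to 0.006 over both and from -0.069 to 0.011 over time in WT, so its sign was not fixed in the last 3. The cause of these shifts was not tested.

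Same-numbered libraries of different groups gave correlations of their deviations from -0.36 to 0.24, with 6 of 18 over 0.1. Differently numbered libraries gave -0.427 to 0.388. Replicate 1 of WT initial, WT final and KO initial went together (0.15 to 0.238), and KO final replicate 2 went with them (0.283 to 0.345). KO final replicate 3 went with WT initial replicate 2 (0.388). Some libraries thus shared deviations across groups, but KO final did not follow the numbers, so these were not taken as pairs. The source of the shared deviations was not tested. A replicate block gave 11, 8 and 12 kinesins called in the genotype comparisons at the initial harvest, the final harvest and over both, 5 and 0 over time in WT and KO, and 0 interactions; KIF15 at the initial harvest was the call lost. Depth limits KIF1A, KIF6, KIF19 and KIF26B.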
